A study of Arabidopsis thaliana with 21 samples.

Results

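Transcripts of 10 regulators of flavonoid synthesis in Arabidopsis thaliana were measured by RNA-seq in 7 groups of seedlings. The genes were taken by locus identifier from a table of 32833 genes, on their known function and with no threshold on their counts. They were the flavonol activators MYB12 (AT2G47460), MYB11 (AT3G62610) and MYB111 (AT5G49330), and the anthocyanin activators PAP1 (AT1G56650, also MYB75) and PAP2 (AT1G66390, also MYB90). The others were the bHLH factors TT8 (AT4G09820), GL3 (AT5G41315) and EGL3 (AT1G63650), the WD40 protein TTG1 (AT5G24520) and the repressor MYBL2 (AT1G71030).

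The study asked how acetylation of a lysine of HY5, a bZIP transcription factor that promotes light responses, bears on HY5 function in high light. It comprised 21 libraries, with 3 libraries labelled as biological replicates in each group. All seedlings were 7 days old and had grown at 100 µmol m-2 s-1, called growth light here. The labels do not say how many seedlings made a replicate.

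In growth light 3 groups were hy5 plants that carried HY5 fused to GFP under the constitutive 35S promoter. K87Q had glutamine in place of lysine 87, in the hy5-1 allele. K87R had arginine there, in the hy5-2 allele. K87K kept the lysine, in the hy5-1 allele. The remaining groups were the hy5 mutant and wild type (WT, accession Col-0) after 2 h at 500 µmol m-2 s-1, called high light, and hy5 and WT in growth light. The labels give no allele for the plants called hy5. Substitution and transgenic line cannot be told apart, nor can allele and substitution where K87R is set against K87Q or K87K. The 35S promoter is active in most tissues, so these lines are no model of the native place or level of HY5.

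Flavonols and anthocyanins are phenylpropanoid pigments that screen seedlings from excess light and UV. MYB11, MYB12 and MYB111 act without a bHLH partner and switch on the early enzymes that lead to flavonols. PAP1 and PAP2 act in a complex with a bHLH factor (TT8, GL3 or EGL3) and TTG1, the MYB-bHLH-WD40 complex, which switches on the late enzymes of anthocyanin synthesis. MYBL2 takes up the bHLH partner and represses these late genes. GL3, EGL3 and TTG1 also work with other MYB proteins in trichome and root-hair patterning. HY5 is known to bind DNA elements with an ACGT core, and MYB12 is among its known targets.

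Library depth was 7283290 to 22101539 counts, with a median of 14815169. Levels are CPM, counts scaled to a common library size after TMM scaling, so that 1 CPM was about 15 counts at the median depth. Values are means ± SD over 3 libraries, and log2 fold changes are given with the SE of the fit. The high-light libraries varied more than the others. Spearman correlations between replicates across genes were 0.777 to 0.936 in high-light hy5 and 0.808 to 0.956 in high-light WT, against 0.974 to 0.989 within the growth-light groups. The replicate 3 libraries of both high-light groups stood apart, with 7.30% (hy5) and 6.52% (WT) of their counts on plastid genes, while no other library exceeded 4.15%. Over the 3 libraries of a group, HY5 itself averaged 248 CPM in K87Q, 344 CPM in K87R and 284 CPM in K87K, where counts do not tell transgene from endogenous gene. HY5 had 0.275 CPM in high-light hy5 and 66.7 CPM in high-light WT, and 0.552 CPM in growth-light hy5 and 8.64 CPM in growth-light WT. In bulk seedlings, fewer cells of a type and less RNA per cell cannot be told apart.

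Promoters of 4 members are shown because the results turn on their genes and because they differ in the ACGT core. Each sequence is the 250 bases before the annotated gene start in RefSeq's TAIR10.1 assembly, read 5′ to 3′ on the gene's strand, with every ACGT in capitals. The windows are chr2:19476076-19476325, plus strand for MYB12, chr1:21235293-21235542, minus strand for PAP1, chr1:24763691-24763940, plus strand for PAP2 and chr1:26796533-26796782, minus strand for MYBL2. All 10 members had the same start and end in the deposited table and in this reference.
MYB12: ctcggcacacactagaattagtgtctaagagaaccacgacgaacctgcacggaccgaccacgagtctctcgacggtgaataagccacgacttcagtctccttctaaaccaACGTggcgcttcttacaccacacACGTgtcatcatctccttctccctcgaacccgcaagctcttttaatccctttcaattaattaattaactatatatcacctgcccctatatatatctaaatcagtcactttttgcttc
PAP1: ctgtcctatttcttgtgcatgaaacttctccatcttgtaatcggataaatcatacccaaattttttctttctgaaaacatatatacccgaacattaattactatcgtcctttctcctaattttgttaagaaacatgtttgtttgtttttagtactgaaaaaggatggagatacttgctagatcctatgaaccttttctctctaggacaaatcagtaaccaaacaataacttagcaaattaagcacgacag
PAP2: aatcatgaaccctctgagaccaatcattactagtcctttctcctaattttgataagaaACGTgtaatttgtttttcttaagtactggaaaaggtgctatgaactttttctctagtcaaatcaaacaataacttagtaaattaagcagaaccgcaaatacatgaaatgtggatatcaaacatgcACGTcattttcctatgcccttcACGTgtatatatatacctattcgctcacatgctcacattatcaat
MYBL2: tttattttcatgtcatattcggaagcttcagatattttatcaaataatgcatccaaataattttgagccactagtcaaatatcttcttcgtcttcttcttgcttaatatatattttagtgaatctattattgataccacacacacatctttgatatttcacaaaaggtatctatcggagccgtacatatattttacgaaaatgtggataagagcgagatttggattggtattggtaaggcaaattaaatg
The palindrome CACGTG, the G-box, contains an ACGT core and was found once in the MYB12 window and once in the PAP2 window, and in no other member. It was present in 6.49% of the same windows of 27443 protein-coding genes. The ACGT core, which reads the same on both strands, was found 2 times in the MYB12 window and 3 times in the PAP2 window. It was absent from the PAP1, GL3 and MYBL2 windows and was present in 44.1% of all windows. ACCTACC, a motif of MYB target genes searched on both strands, was in none of the 10 windows and in 1.16% of all. A match of letters is a description and shows no binding.

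The members fell into abundant and rare transcripts. Levels between genes are compared here as RPKM, CPM per kb of the gene length in the table. In growth-light WT the repressor MYBL2 stood first with 105 ± 8.00 RPKM and TTG1 second with 31.9 ± 3.47 RPKM, and MYB12 followed with 1.43 ± 0.129 RPKM. PAP1 (0.568 ± 0.420 RPKM) and EGL3 (0.416 ± 0.0314 RPKM) came next and did not differ beyond their spread. MYB111, GL3, MYB11 and TT8 were lower still, and PAP2 had 0 counts there. In high-light WT the order was another: MYB12 came first with 50.4 ± 25.5 RPKM, ahead of TTG1 with 28.1 ± 4.03 RPKM and MYBL2 with 22.9 ± 10.3 RPKM. The ranges of these 3 neighbours touched within 1 SD. In high-light hy5 TTG1 (20.1 ± 5.61 RPKM) and MYBL2 (10.9 ± 4.05 RPKM) led, and MYB12 was sixth with 0.0139 RPKM from 1 count. MYBL2 and TTG1 were also first and second in all 3 HY5-GFP lines and in growth-light hy5.

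**Figure D1:**
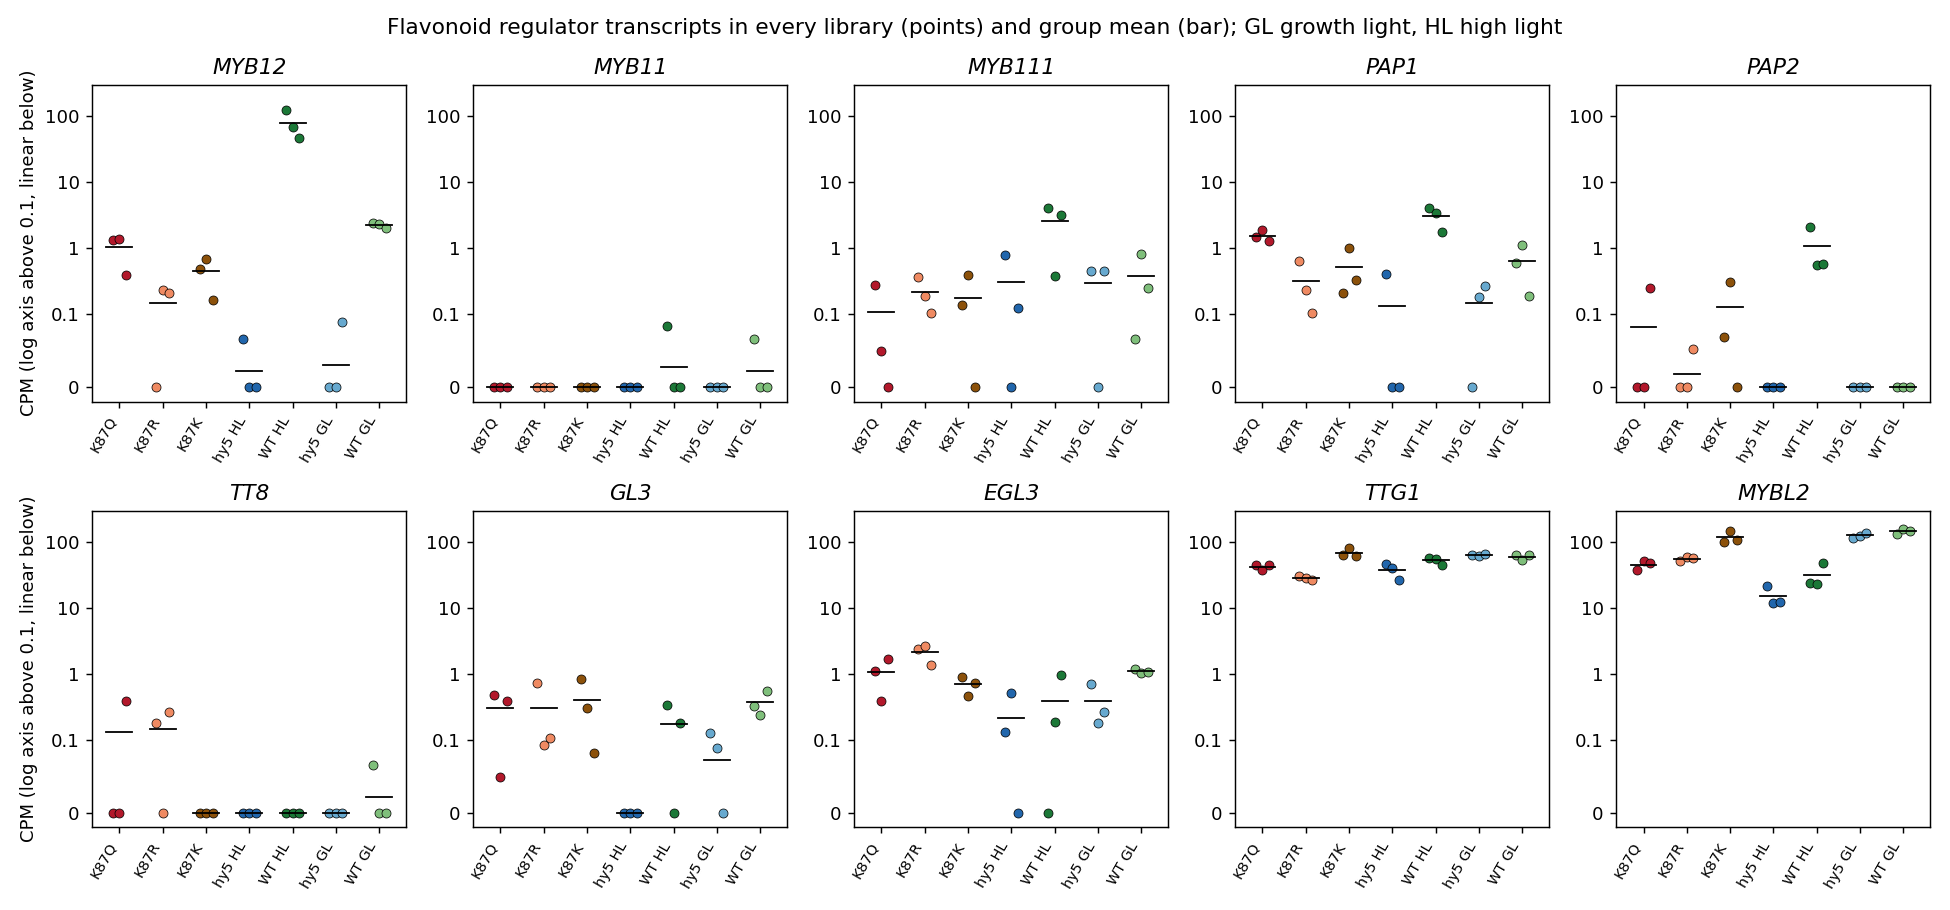
CPM of the 10 regulators in every library (points, replicates left to right) with the group mean (bar), on an axis that is logarithmic above 0.1 and linear below. MYB12 in high-light WT lies at 46.6 to 125 CPM, far above its other groups, MYBL2 and TTG1 are abundant in all 7 groups, and MYB11 and TT8 are near 0.

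MYB12, an activator of flavonol synthesis, had the widest range of the members. It was highest in high-light WT and near 0 in hy5 in both lights. In replicate order its libraries held 0.0661, 0 and 0 CPM in high-light hy5, against 125, 68.0 and 46.6 CPM in high-light WT. In growth light they held 0, 0 and 0.0884 CPM in hy5, against 2.43, 2.31 and 2.03 CPM in WT. The lowest WT library in either light thus lay above every hy5 library. In WT the light effect on MYB12, in log2 units, was 5.13 ± 0.55 (adjusted p = 2.0e-04), and without the replicate 3 libraries of both genotypes it was 5.40 ± 0.33 (adjusted p = 3.0e-07).

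The hy5 mutant nearly lacked MYB12 transcript in both lights. Over 3 libraries, high-light hy5 held 1 count and high-light WT held 3275 counts, a ratio of 3554 with a 95% counting interval of 637 to 140404. In growth light hy5 held 1 count and WT held 99 counts, a ratio of 86.1 (15.1 to 3433). Both differences passed the test (log2 -11.39 ± 0.82, adjusted p = 1.2e-04 in high light; log2 -6.05 ± 1.10, adjusted p = 1.1e-04 in growth light). These intervals cover counting error only. The light effect in hy5 was -0.26 ± 1.34 on the log2 scale (adjusted p = 0.918), from 1 count in each light. The test of the difference between the light effects, hy5 minus WT, gave -5.39 ± 2.17 for MYB12 (unadjusted p = 0.0290, adjusted p = 0.753).

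MYB111 and MYB11, the close relatives of MYB12, were scarce. MYB111 held 0.793, 0 and 0.124 CPM in high-light hy5, against 4.09, 0.374 and 3.14 CPM in high-light WT, and its groups overlapped through WT replicate 2. Growth-light values were 0.448, 0 and 0.442 CPM in hy5 and 0.0657, 0.796 and 0.246 CPM in WT, also overlapping. The light effect on MYB111 in WT was 2.78 ± 1.35 (adjusted p = 0.205), and hy5 minus WT in high light was -2.96 ± 1.36 (adjusted p = 0.444), so neither passed the test. MYB11 had 2 counts in all, 1 in each of 2 WT libraries, and was too scarce to test. A locus on the opposite strand shares 495 of its 1956 bases, and since no strand setting is given for the counts, even these 2 counts are uncertain.

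The anthocyanin activators PAP1 and PAP2 were highest in high-light WT, and the calls on PAP1 varied with the fit. PAP1 held 0.396, 0 and 0 CPM in high-light hy5, against 4.09, 3.36 and 1.77 CPM in high-light WT. In growth light it held 0, 0.177 and 0.265 CPM in hy5, against 0.592, 1.11 and 0.185 CPM in WT. High-light WT libraries lay above all libraries of the 3 other groups, while hy5 and WT overlapped in growth light. The light effect on PAP1 in WT was 2.28 ± 1.19 (adjusted p = 0.238) and became 2.56 ± 0.93 (adjusted p = 0.0420) without the replicate 3 libraries. In high light, hy5 minus WT was -4.41 ± 1.36 (adjusted p = 0.265) for PAP1 and became -4.00 ± 1.2 (adjusted p = 0.0312) without them. With all libraries that genotype difference also passed in DESeq2 (-4.55, adjusted p = 0.0147) and in 1 edgeR fit of all 21 libraries (-4.46, adjusted p = 0.0444). In growth light hy5 minus WT was -2.12 ± 1.02 (adjusted p = 0.136).

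PAP2 was detected in high-light WT with 2.09, 0.561 and 0.575 CPM, from 44 counts, and had 0 counts in high-light hy5, growth-light hy5 and growth-light WT. With a floor of 3 counts over a group in place of 0, PAP2 was 15.9-fold lower in high-light hy5 than in high-light WT. With the same floor it was 14.2-fold higher in high-light WT than in growth-light WT. PAP2 was too scarce for the fit. These folds take the 44 counts as exact and leave out the spread between libraries, so they are no 95% bounds. PAP2 lies in tandem with MYB113 and MYB114, close relatives of PAP1, and reads of such copies can be assigned to a neighbour or lost. MYB113 had 0 counts in every group and MYB114 had 5 counts, all in K87Q.

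The bHLH partners were scarce in all groups. TT8 had 16 counts in all, 8 in K87Q replicate 3, 2 and 5 in K87R replicates 1 and 3, and 1 in growth-light WT replicate 1. GL3 had 0 counts in high-light hy5, against 8 counts in high-light WT, 2.89-fold lower with 3 counts in place of 0. That fold takes the 8 counts as exact. In growth light GL3 had 3 counts in hy5 and 17 in WT, a ratio of 4.93 with a counting interval of 1.42 to 26.2. EGL3 held 0.132, 0.510 and 0 CPM in high-light hy5, against 0, 0.187 and 0.972 CPM in high-light WT. In growth light EGL3 held 0.703, 0.177 and 0.265 CPM in hy5, against 1.18, 1.04 and 1.05 CPM in WT. All 3 growth-light WT libraries thus lay above growth-light hy5 and also above high-light WT, but neither difference passed the test. For EGL3, hy5 minus WT in growth light was -1.43 ± 0.69 (adjusted p = 0.137), and the light effect in WT was -1.36 ± 1.26 (adjusted p = 0.536). Without the replicate 3 libraries that light effect was -3.48 ± 1.22 (adjusted p = 0.0360), and hy5 minus WT in high light was 1.66 ± 1.39 (adjusted p = 0.411) in place of -1.06 ± 1.36 (adjusted p = 0.814). That difference rested on the EGL3 value of 1 library, WT replicate 3.

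MYBL2, the repressor, fell under high light in both genotypes. It held 21.7, 11.7 and 12.2 CPM in high-light hy5, against 117, 124 and 138 CPM in growth-light hy5. In WT it held 23.8, 23.5 and 48.5 CPM in high light, against 134, 156 and 149 CPM in growth light. Every high-light library lay below every growth-light library of its genotype. The light effect was -3.04 ± 0.40 in hy5 (adjusted p = 3.6e-04) and -2.19 ± 0.38 in WT (adjusted p = 0.0032) on the log2 scale. The difference between these effects, hy5 minus WT, was -0.86 ± 0.52 (adjusted p = 0.776), and -0.26 ± 0.32 (adjusted p = 0.600) without the replicate 3 libraries. In high light every hy5 library of MYBL2 lay below every WT library, with a difference of -1.05 ± 0.37 (adjusted p = 0.326). In growth light hy5 minus WT was -0.21 ± 0.13 (adjusted p = 0.250), which passed in a fit of those 2 groups alone (adjusted p = 0.0222) and with total counts in place of TMM (-0.41, adjusted p = 0.0421).

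TTG1, the WD40 subunit that all these complexes share, stayed within a narrow range. It held 47.1, 40.1 and 26.4 CPM in high-light hy5, against 63.2, 61.8 and 66.9 CPM in growth-light hy5, with no overlap. In WT it held 58.3, 56.0 and 44.1 CPM in high light, against 64.6, 52.6 and 62.9 CPM in growth light, with overlap. The light effect on TTG1 was -0.74 ± 0.29 in hy5 (adjusted p = 0.0822) and -0.18 ± 0.29 in WT (adjusted p = 0.736). The effect in hy5 was -0.55 ± 0.17 and passed the test without the replicate 3 libraries (adjusted p = 0.0204), and it also passed without hy5 replicate 1 of high light alone (-0.94, adjusted p = 0.0467). With all libraries it passed in DESeq2 (-0.81, adjusted p = 0.0312) and in 1 edgeR fit of all 21 libraries (-0.76, adjusted p = 0.0130). Between genotypes, hy5 minus WT was -0.44 ± 0.29 in high light (adjusted p = 0.599) and 0.09 ± 0.12 in growth light (adjusted p = 0.647).

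Over the 6 members with enough counts, 2 differed between high light and growth light in WT, where 13.8% of all 19348 genes tested differed. MYB12 was higher, as were 8.68% of all genes, and MYBL2 lower, as were 5.1%. Without the replicate 3 libraries 4 of 6 differed in WT (MYB12, PAP1, EGL3 and MYBL2), and so did 8352 of the 19287 genes tested there. The WT groups did not overlap between the lights for 4 of the 6 (MYB12, PAP1, EGL3 and MYBL2), where they did not overlap for 42.3% of all genes tested. In hy5, 1 of 6 members (MYBL2) differed between the lights, against 24% of all genes, and 2 of 6 (MYBL2 and TTG1) without the replicate 3 libraries, where 8494 of 19287 genes did. In high light, 1 of 6 members (MYB12) differed between hy5 and WT, against 0.16% of all genes, and 2 of 6 (MYB12 and PAP1) without the replicate 3 libraries, where 4643 of 19287 genes did. In growth light, 1 of 5 members (MYB12) differed between hy5 and WT, against 23.5% of all 19679 genes tested there, and 2 of 5 with total counts in place of TMM. For the difference between the light effects edgeR called 0 of 6 members, against 0.00517% of all genes, and DESeq2 also called 0. At an unadjusted p under 0.05 it was 1, MYB12. The median log2 light effect over the 6 members was 1.05 in WT and -0.50 in hy5, where the medians over all genes were 0.05 and 0.03. Tissue markers varied widely in high light. The summed CPM of 5 root markers was 3.47 to 68.6 in high-light hy5 and 16.0 to 312 in high-light WT, against 351 to 377 in growth-light hy5 and 210 to 220 in growth-light WT. The sum of 4 green-tissue markers was 1718 to 58310 CPM in high-light hy5 and 4381 to 110513 CPM in high-light WT. The part of these markers in the light differences of the members was not tested.

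**Figure D2:**
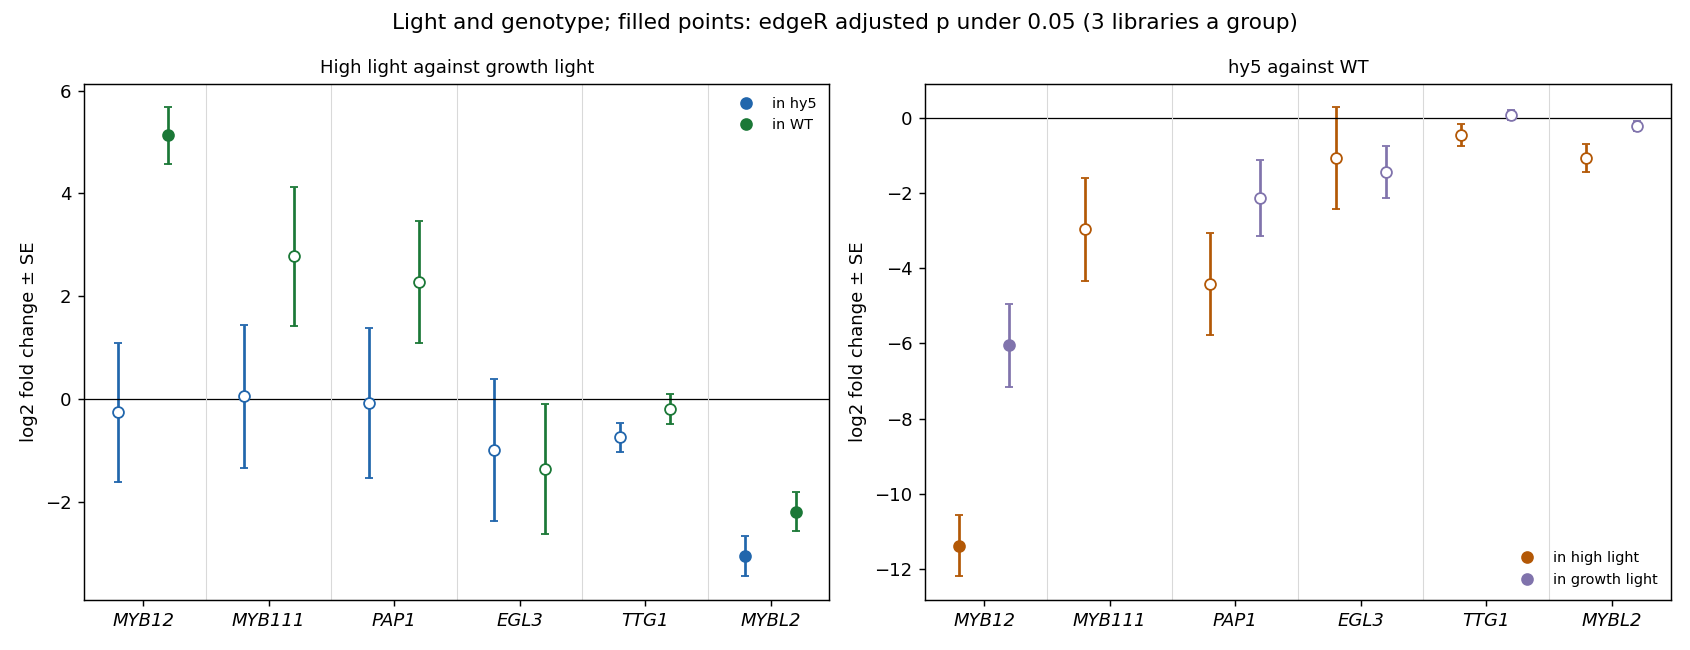
Log2 fold change ± SE of the members with enough counts, for high light against growth light in hy5 and in WT (left) and for hy5 against WT in high light and in growth light (right). Filled points passed an edgeR adjusted p of 0.05. MYB12 at 5.13 in WT and MYBL2 at -3.04 in hy5 and -2.19 in WT are the filled points on the left, and MYB12 at -11.39 and -6.05 those on the right.

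The early flavonoid enzymes, the known targets of MYB12 and its relatives, were set beside the members. Of the 10 on the list 8 had enough counts. In WT 5 of these 8 rose in high light and 0 fell, with a median log2 change of 2.49. Of all genes 8.68% rose and 5.1% fell. The count of 5 was 3 without WT replicate 1 or 2 of high light, and 1 without any 1 of the growth-light WT libraries. FLS1, the flavonol synthase, rose by 4.38 ± 0.59 (adjusted p = 6.3e-04), and RHM1, a rhamnose synthase, rose by 1.92 ± 0.42 (adjusted p = 0.0111). The glucosyltransferase UGT78D2 rose by 2.48 ± 0.56 (adjusted p = 0.0122) and the chalcone isomerase CHI by 2.17 ± 0.58 (adjusted p = 0.0288). In hy5 0 of 8 passed the test in either direction, 0 had an unadjusted p under 0.05, and the median was -0.47. There 24% of all genes passed. The difference between the light effects was called for 0 of 8, while 7 of 8 had an unadjusted p under 0.05. Without the replicate 3 libraries 8 of 8 rose in WT, 2 rose in hy5, and the difference between the light effects was called, as lower in hy5, for 8 of 8. Of all 19287 genes that fit called a light effect for 8352 in WT and 8494 in hy5, and the difference between the light effects for 3452. DESeq2 with all libraries called that difference for 1 of 8 and a light effect in hy5 for 0. The other 2 enzymes, F3H and UGT89C1, are covered for 1588 of 1681 and 1580 of 1587 bases by loci on the opposite strand, and their near-zero counts are not interpretable.

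CHS, the chalcone synthase that opens the pathway, had 12.2, 5.61 and 0.165 CPM in high-light hy5, against 4765, 3030 and 26.4 CPM in high-light WT. In growth light CHS had 8.12, 6.91 and 9.11 CPM in hy5, against 147, 141 and 147 CPM in WT. WT replicate 3 in high light thus lay below growth-light WT for CHS, while its MYB12 level of 46.6 CPM was above every growth-light library. The light effect on CHS in WT was 4.15 ± 1.42 (adjusted p = 0.0739). For growth light, hy5 minus WT was -4.17 ± 0.16 for CHS (adjusted p = 5.6e-19) and -2.56 ± 0.34 for FLS1 (adjusted p = 9.4e-07), both lower in hy5. There 5 of 8 early enzymes were lower in hy5 and 0 higher, with a median of -0.50, and 3 were lower without hy5 replicate 1 or 2 or WT replicate 1, and 1 in 1 fit of all 21 libraries. That fit called 44 of all 20234 genes in this comparison, and the fit of the 15 growth-light libraries called 23.5% of all genes. In high light 1 of 8, FLS1, was lower in hy5 (log2 -6.40 ± 0.65, adjusted p = 0.0025), with a median of -3.36 over the 8. Of all genes 0.16% were called there. In the fit without the replicate 3 libraries 8 of 8 were lower in hy5 in high light, and DESeq2 with all libraries called 6. Of all genes, the former called 4643 of 19287 and the latter 510 of 20695.

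The late anthocyanin enzymes, known targets of the PAP1 complex, averaged under 3 CPM in every group. Of the 6 on the list 4 had enough counts. For the light effect in WT 0 of these 4 passed the test, where 13.8% of all genes did. There 0 also had an unadjusted p under 0.05, and 0 were called by DESeq2 or without the replicate 3 libraries. DFR, the dihydroflavonol reductase, averaged 1.12 ± 0.0762 CPM in high-light WT and 2.39 ± 0.911 CPM in growth-light WT (log2 -1.09 ± 0.94, adjusted p = 0.503). GSTF12, which carries anthocyanin to the vacuole, had 0 counts in high-light hy5, against 19 counts in growth-light hy5. With 3 counts over the group in place of 0 it was 8.14-fold lower, taking the 19 counts as exact. The edgeR test called it (adjusted p = 0.0275), a call that was lost without hy5 replicate 3 of high light or hy5 replicate 1 or 3 of growth light. In growth light 1 of 4 late enzymes differed between hy5 and WT, DFR, which was lower in hy5 at -3.80 ± 1.00 (adjusted p = 0.0049). There DESeq2 called 2 lower and 1 higher in hy5, total counts 2 lower, and 1 edgeR fit of all 21 libraries 0. That last fit called 44 of all 20234 genes in this comparison, and the fit of the 15 growth-light libraries called 23.5% of all genes. In high light edgeR called 0 of 4 between hy5 and WT, against 0.16% of all genes, with 3 at an unadjusted p under 0.05. By DESeq2 2 were lower in hy5, as also without the replicate 3 libraries. RHM1 shares 99 and 348 of its 2899 bases, and GSTF12 shares 108 of its 1246, with loci on the opposite strand, whose reads these counts may hold.

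Of 12 other regulators of the pathway 9 had enough counts. KFB-CHS, an F-box protein that marks chalcone synthase for destruction, fell in high light, at -4.52 ± 0.86 in hy5 (adjusted p = 0.0033) and -4.10 ± 0.85 in WT (adjusted p = 0.0081). MYB4 and MYB7, repressors of phenylpropanoid genes, rose in hy5 by 3.40 ± 0.73 (adjusted p = 0.0065) and 3.15 ± 0.52 (adjusted p = 0.0014). In WT MYB32, a relative of both, rose by 2.76 ± 0.70 (adjusted p = 0.0223) and HYH, the homologue of HY5, by 1.34 ± 0.36 (adjusted p = 0.0280). In all 2 of 9 rose and 1 fell in each genotype, where 24% of all genes were called in hy5 and 13.8% in WT. In high light 0 of 9 differed between hy5 and WT, against 0.16% of all genes. There 2 had an unadjusted p under 0.05 and 0 were called by DESeq2. Leaving out the replicate 3 libraries, 3 rose and 4 fell in hy5, 3 rose and 1 fell in WT, and 3 differed between the genotypes in high light. With total counts in place of TMM 0 rose and 1 fell in WT, so the rises of MYB32 and HYH were not called there.

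**Figure D3:**
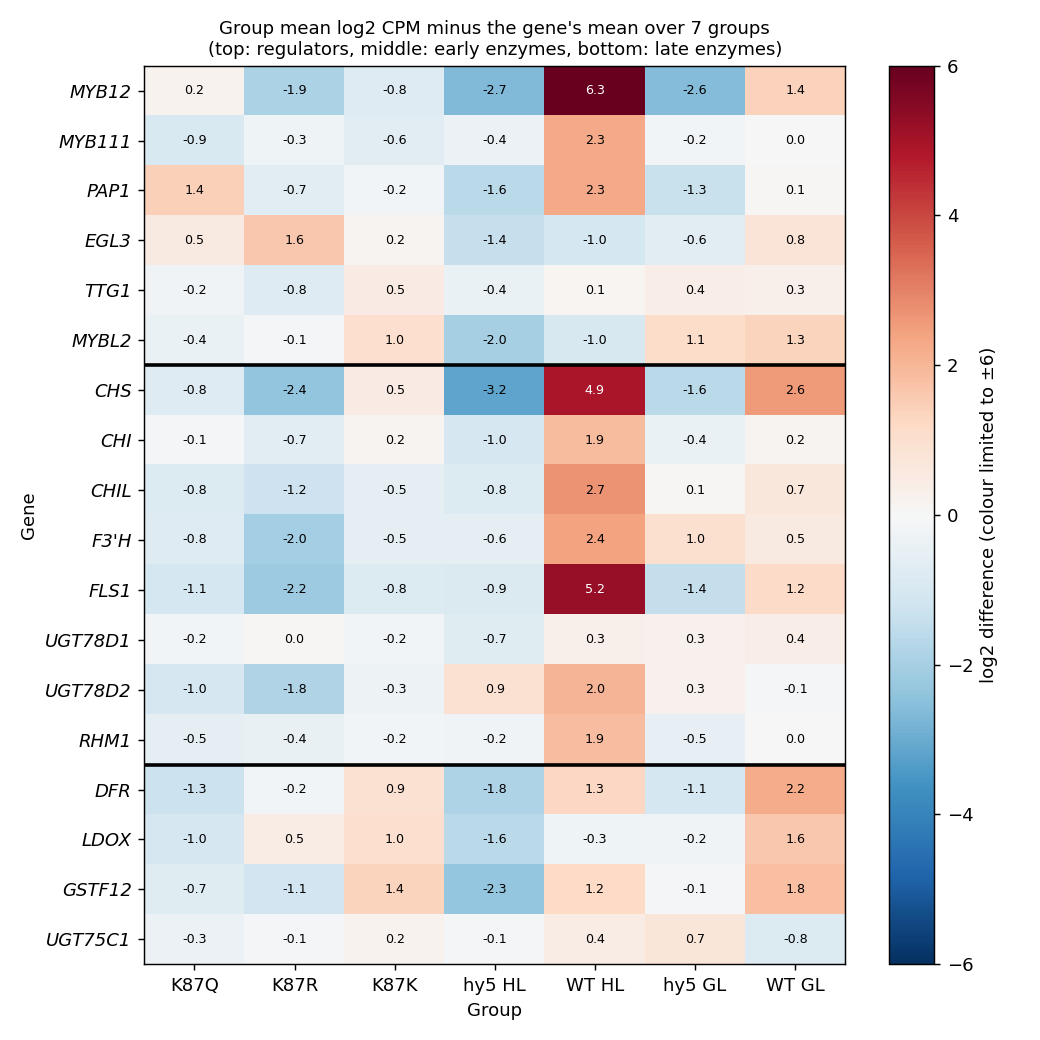
Group means of log2 CPM, each minus the gene's mean over the 7 groups, for 6 regulators (top), 8 early enzymes (middle) and 4 late enzymes (bottom); colour is limited to 6 on either side and the numbers give the value. MYB12, CHS and FLS1 have their highest value in high-light WT. MYBL2 is below its mean there and lowest in high-light hy5, where MYB12 and CHS are also lowest.

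In the HY5-GFP lines, grown in growth light, MYB12 was higher in K87Q and K87K than in hy5, and no line exceeded WT. Its libraries held 1.34, 1.37 and 0.392 CPM in K87Q, 0, 0.230 and 0.208 CPM in K87R and 0.479, 0.690 and 0.164 CPM in K87K, against 0, 0 and 0.0884 CPM in hy5 and 2.43, 2.31 and 2.03 CPM in WT. Every K87Q and K87K library lay above every hy5 library, and every library of the lines lay below every WT library. HY5 transcript exceeded WT in each line, by log2 4.84 ± 0.34 in K87Q, 5.31 ± 0.35 in K87R and 5.03 ± 0.34 in K87K.

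Against hy5, MYB12 rose in K87Q by 4.93 ± 1.14 (adjusted p = 4.9e-04) and in K87K by 3.73 ± 1.25 (adjusted p = 0.0231), while K87R minus hy5 was 2.32 ± 1.37 (adjusted p = 0.149). With total counts in place of TMM the K87R difference was 3.15 and passed (adjusted p = 0.0302). The counts behind these folds were 70 in K87Q, 9 in K87R and 18 in K87K, against 1 in hy5. The K87K call was lost without hy5 replicate 1 (adjusted p = 0.113), hy5 replicate 2 (0.0817) or K87K replicate 2 (0.0806). Against WT, MYB12 was lower in K87R, at -3.73 ± 0.82 (adjusted p = 3.0e-04) and in K87K, at -2.31 ± 0.75 (adjusted p = 0.0203). K87Q minus WT was -1.12 ± 0.68 (adjusted p = 0.169), with no overlap of libraries. The K87K call against WT was lost without K87K replicate 1 (adjusted p = 0.0580) or 3 (0.110), or WT replicate 1 (0.0730), 2 (0.0613) or 3 (0.0535).

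Between the lines, MYB12 was higher in K87Q than in K87R by 2.61 ± 0.82 (adjusted p = 0.0168), with every K87Q library above every K87R library. That call was lost without K87Q replicate 1 (adjusted p = 0.0724) or K87R replicate 1 (0.0743). In 1 fit of all 21 libraries the MYB12 calls for K87K against hy5 (adjusted p = 0.133), K87K against WT (0.0661) and K87Q against K87R (0.447) were lost. That fit called few genes there: 170 of 20234 for K87K against hy5, 221 for K87K against WT and 0 for K87Q against K87R. MYB12 in K87Q minus K87K was 1.2 ± 0.75 (adjusted p = 0.186) and in K87R minus K87K -1.41 ± 0.88 (adjusted p = 0.185). MYB111 was too scarce in growth light to test, with 8 counts in K87Q, 10 in K87R, 7 in K87K, 12 in hy5 and 15 in WT.

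PAP1 was highest in K87Q among the growth-light groups. Its libraries held 1.45, 1.91 and 1.27 CPM in K87Q, 0.626, 0.230 and 0.104 CPM in K87R and 0.205, 0.997 and 0.327 CPM in K87K, against 0, 0.177 and 0.265 CPM in hy5 and 0.592, 1.11 and 0.185 CPM in WT. The K87Q libraries lay above all libraries of the other 4 groups. PAP1 rose in K87Q against hy5 by 3.43 ± 0.97 (adjusted p = 0.0034) and against K87R by 2.37 ± 0.85 (adjusted p = 0.0357). The call against K87R was lost without K87Q replicate 1 (adjusted p = 0.0816), 2 (0.0834) or 3 (0.0538), or K87R replicate 2 (0.137) or 3 (0.156), and with total counts (0.0620). In 1 fit of all 21 libraries neither call held (adjusted p = 0.0523 against hy5 and 0.645 against K87R). Of all 20234 genes that fit called 3386 for K87Q against hy5 and 0 for K87Q against K87R. PAP1 in K87Q minus WT was 1.31 ± 0.79 (adjusted p = 0.167) and in K87Q minus K87K 1.59 ± 0.81 (adjusted p = 0.0999), and neither passed the test. Without K87K replicate 2, the K87K library with the highest PAP1 value, the difference from K87K passed it (adjusted p = 0.0448), as it did with total counts (adjusted p = 0.0450). PAP2 had 5 counts in K87Q, 1 in K87R and 5 in K87K, against 0 in hy5 and WT.

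EGL3, a bHLH partner, was highest in K87R. It held 1.10, 0.391 and 1.67 CPM in K87Q, 2.41, 2.67 and 1.35 CPM in K87R and 0.889, 0.460 and 0.736 CPM in K87K, against 0.703, 0.177 and 0.265 CPM in hy5 and 1.18, 1.04 and 1.05 CPM in WT. The K87R libraries lay above all K87K, hy5 and WT libraries and overlapped with K87Q. EGL3 was higher in K87R than in hy5 by 2.40 ± 0.68 (adjusted p = 0.0030) and than in K87K by 1.61 ± 0.64 (adjusted p = 0.0349). The call against K87K was lost without K87K replicate 2 (adjusted p = 0.104) or 3 (0.0655), or K87R replicate 1 (0.0800) or 2 (0.119). In 1 fit of all 21 libraries neither call held (adjusted p = 0.101 against hy5 and 0.304 against K87K). Of all 20234 genes that fit called 4526 for K87R against hy5 and 3050 for K87R against K87K. K87R minus WT was 0.97 ± 0.61 (adjusted p = 0.189) and K87Q minus hy5 was 1.38 ± 0.68 (adjusted p = 0.0869) for EGL3. The difference between K87Q and hy5 passed without hy5 replicate 1 (adjusted p = 0.0352) or K87Q replicate 2 (0.0291). With total counts in place of TMM both differences passed (adjusted p = 0.0121 for K87R minus WT and 0.0090 for K87Q minus hy5). GL3 had 21 counts in K87Q, 12 in K87R and 17 in K87K, against 3 in hy5 and 17 in WT.

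MYBL2 was lower in K87Q and K87R than in the other growth-light groups. It held 37.6, 50.8 and 48.2 CPM in K87Q, 51.3, 58.7 and 57.7 CPM in K87R and 101, 146 and 106 CPM in K87K, against 117, 124 and 138 CPM in hy5 and 134, 156 and 149 CPM in WT. No K87Q or K87R library overlapped with K87K, hy5 or WT, and K87K overlapped with both hy5 and WT. On the log2 scale MYBL2 in K87Q fell by 1.48 ± 0.13 against hy5 (adjusted p = 1.9e-11), by 1.69 ± 0.13 against WT (adjusted p = 8.7e-13) and by 1.37 ± 0.13 against K87K (adjusted p = 1.1e-10). In K87R it fell by 1.18 ± 0.13 against hy5 (adjusted p = 2.3e-09), by 1.39 ± 0.13 against WT (adjusted p = 7.8e-11) and by 1.07 ± 0.13 against K87K (adjusted p = 2.0e-08). K87K minus hy5 was -0.10 ± 0.13 (adjusted p = 0.592), and K87K minus WT was -0.31 ± 0.13 (adjusted p = 0.0685), which passed without K87K replicate 2 (adjusted p = 0.0038). K87Q minus K87R was -0.30 ± 0.13 (adjusted p = 0.0849), with no overlap, and passed without K87Q replicate 2 (adjusted p = 0.0398).

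TTG1 was lowest in K87R. It held 45.5, 37.2 and 44.1 CPM in K87Q, 30.5, 28.5 and 26.5 CPM in K87R and 62.7, 80.2 and 61.0 CPM in K87K, against 63.2, 61.8 and 66.9 CPM in hy5 and 64.6, 52.6 and 62.9 CPM in WT. TTG1 in K87Q was lower than in hy5 (-0.60 ± 0.12, adjusted p = 1.4e-04), than in WT (-0.51 ± 0.12, adjusted p = 8.7e-04) and than in K87K (-0.69 ± 0.12, adjusted p = 2.2e-05). In K87R it was lower than in hy5 (-1.17 ± 0.13, adjusted p = 1.5e-09), than in WT (-1.08 ± 0.13, adjusted p = 1.1e-08) and than in K87K (-1.26 ± 0.13, adjusted p = 4.2e-10). It was higher in K87Q than in K87R by 0.57 ± 0.13 (adjusted p = 0.0010). These groups did not overlap, while K87K overlapped with hy5 and WT. In 1 fit of all 21 libraries the TTG1 calls for K87Q against hy5 (adjusted p = 0.0755), WT (0.134) and K87R (0.585) were lost. Of all 20234 genes that fit called 3386, 3389 and 0 in these comparisons.

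The size of these differences moved with the scaling of libraries. TMM factors were 1.15 to 1.34 in K87Q, 1.5 to 1.57 in K87R and 0.940 to 1.03 in K87K, against 0.784 to 0.795 in hy5 and 0.887 to 0.927 in WT. With total counts in place of TMM the median gene was higher than in hy5 by 0.76 in K87Q and 1.05 in K87R on the log2 scale, and than in WT by 0.49 in K87Q and 0.85 in K87R. Over the other 10 comparisons that median lay between -0.29 and 0.70. With TMM the median over all genes lay between -0.02 and 0.10 in all 14 comparisons. With total counts in place of TMM, TTG1 in K87Q minus hy5 turned to 0.0579 ± 0.13 (adjusted p = 0.698). The TTG1 calls for K87Q against WT (log2 -0.05), K87R against hy5 (-0.21) and K87Q against K87R (0.27) were lost, and those against K87K and for K87R against WT (-0.31) held. MYBL2 remained lower in K87Q against hy5 (-0.80), WT (-1.21) and K87K (-1.03), and in K87R against WT (-0.63) and K87K (-0.44). Its K87R difference from hy5 was then -0.22 (adjusted p = 0.185), while K87Q minus K87R was -0.58 and passed the test (adjusted p = 0.0045). Relative to the median gene, which those total counts place higher, both genes were lower in K87Q and K87R under either scaling. A change of scaling shifts all genes of a comparison by about the same amount. The likeness of the 2 scalings in this respect was thus fixed in advance and tests nothing.

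**Figure D4:**
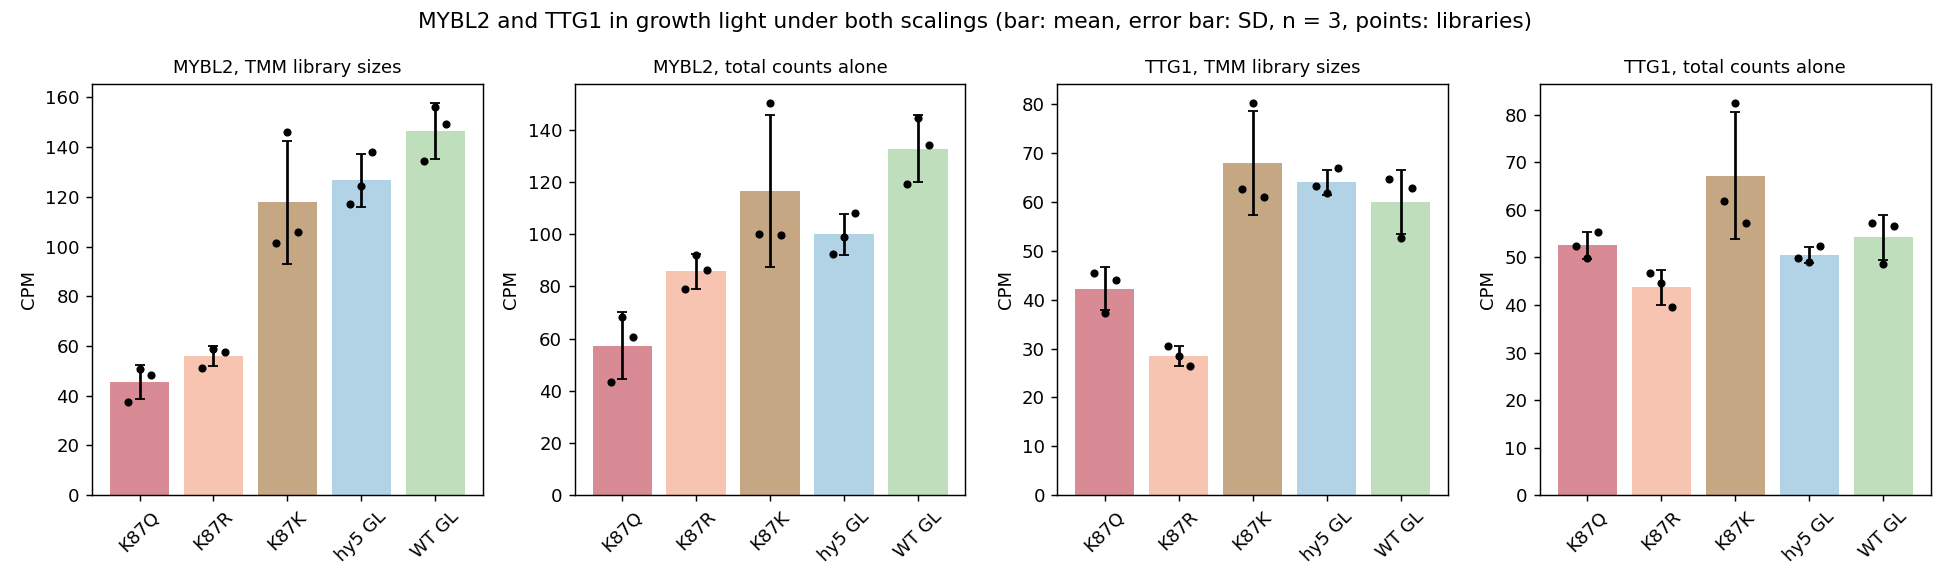
MYBL2 and TTG1 in the growth-light groups as CPM of TMM library sizes and as CPM of total counts alone (bars means, error bars SD, n = 3, points libraries). MYBL2 in K87Q and K87R stays below hy5 and WT under both, and TTG1 in K87Q is below hy5 with TMM (42.2 against 64.0 CPM) but not with total counts (52.6 against 50.5 CPM).

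Marker transcripts of tissues also moved with K87Q and K87R. Summed CPM of 5 root markers was 45.4 to 70.5 in K87Q, 23.3 to 32.5 in K87R and 245 to 285 in K87K, against 351 to 377 in hy5 and 210 to 220 in WT. Summed CPM of 4 green-tissue markers was 36685 to 53877 in K87Q, 24348 to 26841 in K87R and 45528 to 60767 in K87K, against 91141 to 99662 in hy5 and 75694 to 88850 in WT. The sum hides unlike changes of these 4, of which 3 were called lower and 0 higher in K87Q against WT. Mean log2 CPM in K87Q and WT was 9.35 and 13.14 for LHCB2.1, and 14.81 and 15.17 for CAB1. The 4 seed markers summed to 15.7 to 27.6 CPM in K87Q and 1.97 to 9.51 CPM in K87R, against under 1 CPM in every library of the other groups. SESA1 among them had 0 counts in K87Q and K87R. Of 3 seed-coat markers, TT2 and BAN had 0 counts in all groups. The third, AHA10, a proton pump gene, averaged 1.37 ± 0.420 CPM in K87Q, 1.55 ± 0.228 CPM in K87R and 0.671 ± 0.256 CPM in K87K, against 0.398 ± 0.203 CPM in hy5 and 0.625 ± 0.427 CPM in WT. It was higher than in hy5 in K87Q (1.73 ± 0.68, adjusted p = 0.0321) and K87R (1.90 ± 0.68, adjusted p = 0.0180). The part of these shifts in the MYBL2, TTG1, PAP1 and EGL3 differences was not tested.

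Counted over the 5 members tested in growth light, the calls are set here beside the share of all genes called. Against hy5, 4 of 5 differed in K87Q, 3 of 5 in K87R and 1 of 5 in K87K, where 53.1%, 57.4% and 27.9% of all genes did, and the medians over the 5 members were 1.38, 1.06 and 0.79 on the log2 scale. Against WT, 2 of 5 differed in K87Q, 3 of 5 in K87R and 1 of 5 in K87K, where 52%, 49.4% and 25.6% of all genes did. Against K87K, 2 of 5 differed in K87Q and 3 of 5 in K87R, where 50.9% and 50.5% of all genes did. Between K87Q and K87R 3 of 5 differed, where 27.3% of all genes did. With so many genes called, counts of 1 to 4 among 5 are near the background in most of these comparisons. Among all calls in the 8 comparisons of a line with hy5, WT or K87K, the share higher was 49.4% to 52.4% with TMM and 68.7% to 87.2% with total counts. For K87Q against K87R it was 57.2% and 15.6%, and for hy5 against WT in growth light 51.8% and 25.2%.

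**Figure D5:**
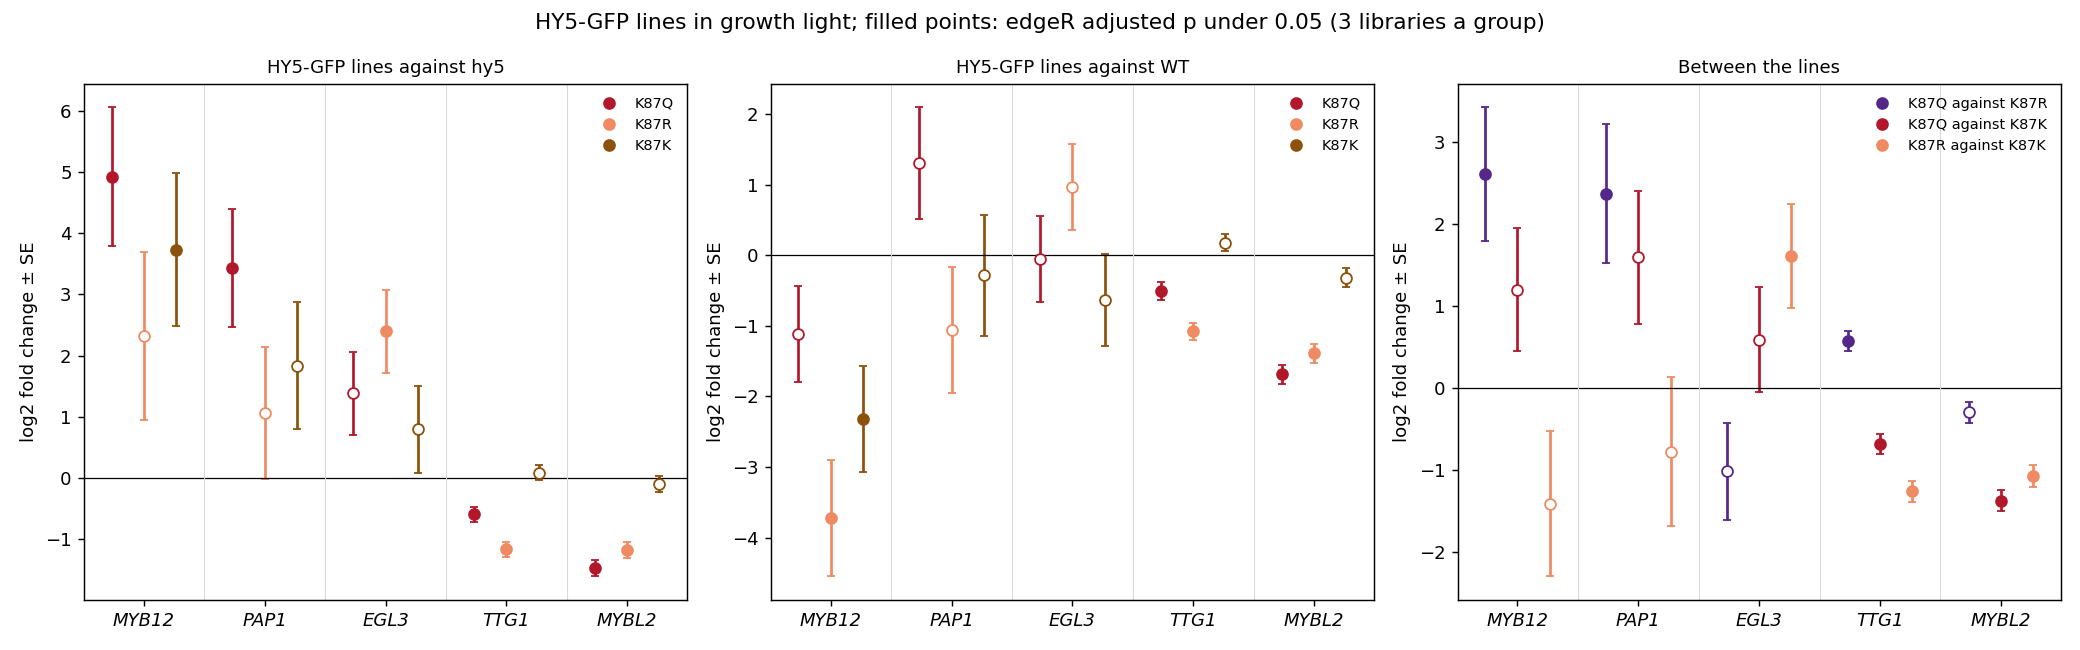
Log2 fold change ± SE of the 5 members tested in growth light, for the HY5-GFP lines against hy5 (left) and against WT (middle) and between the lines (right). Filled points passed an edgeR adjusted p of 0.05. MYB12 in K87Q and K87K is above hy5 and in K87R and K87K below WT, and MYBL2 and TTG1 in K87Q and K87R are below hy5, WT and K87K.

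Among the enzyme genes in the lines, CHS averaged 14.2 ± 3.16 CPM in K87Q, 4.61 ± 0.743 CPM in K87R and 34.8 ± 4.67 CPM in K87K, against 8.04 ± 1.10 CPM in hy5 and 145 ± 3.16 CPM in WT. Thus CHS rose against hy5 in K87Q (log2 0.83 ± 0.16, adjusted p = 4.3e-05) and K87K (2.11 ± 0.16, adjusted p = 5.8e-12) and fell in K87R (-0.83 ± 0.17, adjusted p = 1.4e-04), and it was below WT in all 3 lines. With total counts in place of TMM CHS averaged 7.07 CPM in K87R and 6.35 CPM in hy5, so the fall in K87R was not seen. It was then 17.6 CPM in K87Q, 34.2 CPM in K87K and 131 CPM in WT. The mean of CHS was lower in K87Q than in K87K, while that of MYB12 was higher in K87Q, a MYB12 difference that did not pass the test. Of the 8 early enzymes, 7 were lower in K87Q than in WT, 8 in K87R and 4 in K87K, and 0 were higher. Their median log2 changes were -1.15, -1.82 and -0.73. Of all genes 52%, 49.4% and 25.6% were called in these comparisons, in either direction. Against hy5, 1 early enzyme rose and 4 fell in K87Q, 0 rose and 4 fell in K87R, and 3 rose and 4 fell in K87K. There 53.1%, 57.4% and 27.9% of all genes were called. With total counts in place of TMM the balance against hy5 turned: 4 were higher and 2 lower in K87Q, 3 higher and 2 lower in K87R, and 4 higher and 0 lower in K87K. Against WT, total counts gave 0 higher and 4 lower in K87Q, 2 higher and 5 lower in K87R, and 0 higher and 4 lower in K87K. With TMM but without 1 library of hy5 or K87K, either replicate 1 or 2, the early enzymes called between K87K and hy5 were 1 to 3 higher and 0 to 2 lower. Against K87R, 5 of 8 were higher in K87Q and 0 lower, with a median of 0.68, FLS1 among them (1.16 ± 0.35, adjusted p = 0.0133). Of all genes 27.3% were called there. With total counts 2 of the 8 were higher and 2 lower in K87Q than in K87R, where 15.6% of all calls were higher. In 1 fit of all 21 libraries 0 were called, where that fit called 0 of all 20234 genes.

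Of the late enzymes, 3 of 4 were below WT in K87Q, with DFR at -4.19 ± 0.96 (adjusted p = 4.2e-04), LDOX, the leucoanthocyanidin dioxygenase, at -2.82 ± 0.84 (adjusted p = 0.0053) and GSTF12 at -2.52 ± 0.80 (adjusted p = 0.0083). The same 3 were below K87K, and all 3 of those calls were lost without K87K replicate 1 or K87Q replicate 2. Of all genes 52% were called in K87Q against WT and 50.9% against K87K. In K87Q 0 of 4 late enzymes differed from hy5, against 53.1% of all genes. There 0 had an unadjusted p under 0.05 and DESeq2 called 0. DFR averaged 0.127 ± 0.188 CPM in K87Q, against 0.177 ± 0.234 CPM in hy5 and 2.39 ± 0.911 CPM in WT. In K87R 2 of 4 were below WT, DFR and GSTF12, and with total counts 1 was higher and 1 lower there. In K87K 0 of 4 were called against WT by edgeR or DESeq2. Of all genes edgeR called 49.4% in K87R and 25.6% in K87K against WT.

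Among the other regulators, KFB-CHS was lower than WT in K87Q (-1.92 ± 0.13, adjusted p = 4.7e-14), K87R (-2.10 ± 0.13, adjusted p = 5.1e-15) and K87K (-0.50 ± 0.12, adjusted p = 0.0027). HYH was below WT in all 3 lines too, at -2.00 ± 0.28 in K87Q, -2.61 ± 0.30 in K87R and -1.09 ± 0.28 in K87K. The LBD37, LBD38 and LBD39 genes, nitrogen-responsive repressors of PAP1 and PAP2, were below WT in K87Q (-0.89, -1.26 and -0.79) and K87R (-1.39, -1.46 and -1.0), and all 6 differences passed the test. In K87K LBD38 was higher than in WT (0.40 ± 0.12, adjusted p = 0.0152). SPL9, which hinders the PAP1 complex, averaged 6.65 ± 1.53 CPM in K87Q, 5.63 ± 1.28 CPM in K87R and 1.09 ± 0.408 CPM in K87K, against 2.49 ± 0.171 CPM in hy5 and 2.67 ± 0.480 CPM in WT. Over the 9 regulators tested, 1 was higher and 5 lower than WT in K87Q, 2 higher and 5 lower in K87R, and 1 higher and 4 lower in K87K. Of all genes 52%, 49.4% and 25.6% were called in these comparisons. With total counts 2 of the 9 were higher and 5 lower in K87Q, 4 higher and 4 lower in K87R, and 1 higher and 4 lower in K87K. Of all genes called with total counts, 76.0%, 85.8% and 68.7% were higher.

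For each of the 6 members with enough counts, the genes nearest in pattern were sought among 8797 genes with a symbol, by the root mean square difference of centred log2 group means over the 7 groups. The genes nearest to MYB12 were FLS1 (1.04), CHS (1.05) and 4CL3 (1.63), a coumarate-CoA ligase gene, where MYB12 itself ranged over 8.99 log2 units. Nearest to MYB111 was RHM1 (0.305) and nearest to PAP1 was the transporter gene ABCB13 (0.426), with ranges of 3.21 and 3.91. NIK2 lay nearest to EGL3 (0.186) and THE1 nearest to MYBL2 (0.210), with ranges of 2.999 and 3.31. EMB1273 lay nearest to TTG1 (0.117), where the measure says less, since TTG1 ranged over only 1.24 units. The 7 groups share libraries and scaling, so these distances describe the patterns and test nothing.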

How the data were processed

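RNA-seq counts of 10 members were analysed in 21 libraries, 3 labelled biological replicates in each of 7 groups. The authors deposited raw counts per gene, whole numbers from 0, in 1 table with gene lengths. The submitters' processing notes list DESeq2 1.20.0, featureCounts 1.5.0-p3, StringTie 1.3.3b, HISAT2 2.0.5 and fastp, beside build TAIR10. They assign these tools no role, and strand is not given in the sources used here. All 21 columns were matched to samples by the names in the labels, with 0 left over. Some columns carry genotype names and the others JS numbers, a difference that the labels do not explain. The genotype names belong to replicate 1 of each growth-light group and of high-light hy5, but to replicate 2 of high-light WT. Replicate numbers thus do not follow this naming in high light.

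Tests used edgeR 4.0.16 in R 4.3.3, with low counts filtered by group (filterByExpr), TMM library sizes and the quasi-likelihood F test with robust dispersions, with Benjamini-Hochberg adjustment over all genes tested and calls at an adjusted p under 0.05. Every adjusted p is from edgeR unless DESeq2 is named. High-light comparisons came from 1 fit of the 12 WT and hy5 libraries (19348 genes, 6 members), growth-light comparisons from 1 fit of the 15 growth-light libraries (19679 genes, 5 members), since the high-light libraries vary more. MYB11, PAP2, TT8 and GL3 had too few counts for either fit. No adjustment was made for the 14 comparisons, which share libraries. SE is the log2 fold change over the root of F. CPM use TMM sizes of all 21 libraries. For a group at 0 counts the floor was 3 counts, summed over its libraries, and the counts of the other group were taken as exact. Counts of 1 to 3 are given as ratios with exact 95% counting intervals. Only the edgeR fit and test were first run on simulated counts, for K87Q against hy5 and for the light effect in WT.

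The members and lists were chosen with earlier results of these data known. The text names all members, and from each list the 4 genes with the smallest adjusted p of a comparison, or fewer, with others chosen after their values were seen. Whether replicate numbers pair samples was checked across genes, by correlating the deviations of like-numbered libraries. For hy5 with WT in high light r lay between 0.159 and 0.483, and elsewhere between -0.126 and 0.134. Both replicate 3 libraries stood apart in high light, which can by itself raise r for all 3 numbers. The check thus cannot show whether the high-light numbers are pairs. The fit with the replicate number changed no member's call between hy5 and WT in high light. Alternatives were total counts, DESeq2 size factors, DESeq2 1.42.0, no filter, 1 fit of all 21 libraries, the compared groups alone, the replicate block, each library left out, and both high-light replicate 3 libraries left out.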

Additional observations from a re-analysis of the deposited data

How the results depend on the processing

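Of 998 values of members recomputed under the alternatives, 939 kept direction and side of the threshold, 34 lost their call, 24 gained one and 1 reversed: TTG1 in K87Q minus hy5, 0.0579 with total counts. Counts of members called moved by over 1.5 times as follows. With 1 fit of all 21 libraries they were 2 for hy5 high against growth light (1 in the report), 2 for hy5 against WT in high light (1), 0 for K87K against hy5 (1), 0 for K87K against WT (1), 2 for K87Q against hy5 (4), 1 for K87Q against WT (2) and 0 for K87Q against K87R (3). Of all 20234 genes, that fit called 7390, 636, 170, 221, 3386, 3389 and 0, in the same order. The fits of the report called 4638, 31, 5497, 5036, 10442, 10227 and 5372 genes there. DESeq2 gave 2 for the light effect in hy5 and 2 for hy5 against WT in high light, where it called 6197 of 21651 and 510 of 20695 genes. With the compared groups alone the counts of members were 2 for hy5 against WT in growth light and 0 for K87K against hy5. Of all genes 6863 of 18102 and 5497 of 17810 were called there. With total counts 2 members were called for hy5 against WT in growth light, 2 for K87K against hy5 and 1 for K87Q against WT. Of all 19679 genes 5185, 6917 and 11756 were called there. Without the high-light replicate 3 libraries 4 members were called in WT (2), 2 in hy5 and 2 between the genotypes in high light. Of all 19287 genes 8352, 8494 and 4643 were called there. Under these and the other settings, 10 more counts of members moved by 1. The cause of these moves was not tested. With 1 fit of all 21 libraries the comparisons of the lines called 0 to 5 of the early enzymes, 0 to 1 of the late enzymes, 0 to 5 of the other regulators and 0 of the patterning genes.

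Leaving out each library in turn gave 2 to 2 for the light effect in WT, 1 to 2 in hy5, 0 to 0 for the interaction, 1 to 1 for hy5 against WT in either light, 0 to 1 for K87K against hy5, 4 to 5 for K87Q against hy5, 3 to 3 for K87R against hy5, 0 to 2 for K87K against WT, 2 to 2 for K87Q against WT, 3 to 3 for K87R against WT, 2 to 3 for K87Q and 2 to 3 for K87R against K87K, and 1 to 3 for K87Q against K87R. The replicate block gave 2 for K87K against WT (1), through MYBL2 (-0.32, adjusted p = 0.0238), and it called MYBL2 in K87Q minus K87R (-0.30, adjusted p = 0.0357); it changed no other call. The numbers pair no samples there by the check. Members under about 1 CPM rest on a few counts a library, so their differences are detectable only where large.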

Other observations

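The MYB partners and targets that GL3, EGL3 and TTG1 serve in trichome and root-hair patterning were measured in the same libraries. Under high light 0 of 9 tested genes changed in hy5 or in WT by the edgeR test, where 24% and 13.8% of all genes did. Of the 9, 0 had an unadjusted p under 0.05 in either. Without the replicate 3 libraries of high light, 1 was lower in hy5, and 1 was higher and 1 lower in WT. That fit called 8494 of all 19287 genes in hy5 and 8352 in WT. DESeq2 with all libraries called 1 of the 9 in hy5, lower, and 0 in WT. It called 6197 of all 21651 genes in hy5 and 3967 of 20695 in WT. In growth light MYC1, a bHLH factor related to GL3 and EGL3, was lower in hy5 than in WT (log2 -1.49 ± 0.54, adjusted p = 0.0428). It was 1 of 11 called, against 23.5% of all genes. The call was lost without hy5 replicate 1 or 3 or WT replicate 1 or 2. MYC1 was above hy5 in K87Q by 1.32 ± 0.54 (adjusted p = 0.0377) and in K87R by 2.28 ± 0.53 (adjusted p = 4.7e-04). TRY, a single-repeat MYB that inhibits trichome fate, fell against hy5, at -3.62 ± 0.91 in K87Q (adjusted p = 0.0013) and -3.66 ± 0.95 in K87R (adjusted p = 0.0014). GL1, the MYB that starts trichomes, was higher than in K87K by 3.07 ± 1.2 in K87Q (adjusted p = 0.0330) and by 4.14 ± 1.17 in K87R (adjusted p = 0.0036). These folds rest on 2 counts of GL1 in K87K, against 32 in K87Q and 55 in K87R. Against WT, 0 of the 11 genes were called higher and 1 lower in K87Q, and likewise in K87R, where 52% and 49.4% of all genes were called. With total counts 3 of the 11 were higher and 1 lower than WT in K87R, and 0 higher and 1 lower in K87Q. That scaling called 13849 of all 19679 genes in K87R against WT, 85.8% of them higher, and 11756 in K87Q, 76.0% higher. GL2, a target of the complex, averaged 8.17 ± 2.58 CPM in K87Q, 5.80 ± 0.964 CPM in K87R and 9.70 ± 2.20 CPM in K87K, and K87R was below K87K (-0.75 ± 0.26, adjusted p = 0.0141). With total counts in place of TMM 3 of 11 were higher in K87R than in K87K and 0 lower. Likewise 5 were higher and 1 lower in K87R than in hy5, and 3 higher and 1 lower in K87Q than in hy5. Of all 19679 genes total counts called 13161, 15140 and 13715 in the same order, with 82.9%, 87.2% and 82.5% of the calls higher. With 1 fit of all 21 libraries 0 of the 11 were called in any line, where that fit called 0 to 4526 of all 20234 genes. The list was chosen with earlier results of these data known.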
